A study of Homo sapiens with 39 samples.

Results

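The effect of vemurafenib on guide abundance was compared between day 8 and day 14 in a pooled CRISPR knockout screen of A375 cells that lacked MED12, using 12 of the 39 libraries of the study. The 12 libraries were those of the epigenetic screen in MED12 knockout cells at both times, 3 libraries in each of 4 groups. Of 12214 guides in the library 11150 were aimed at genes, 10 for each of 1115 genes, and 11144 of these passed a filter on low counts, so that 1109 genes kept 10 guides and 6 kept 9. The value of interest was the drug effect at day 14 (vemurafenib minus DMSO) minus the drug effect at day 8, with the replicate number kept as a block. A positive difference means that the guides of a gene had become more enriched, or less depleted, under the drug relative to DMSO by the later day.

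A375 is a melanoma line with an activating mutation of BRAF. Every group carried the MED12 knockout, the DMSO groups included, so the comparison holds no cells with MED12. The 4 groups were MED12 KO cells in DMSO at day 8, in 2 µM vemurafenib at day 8, in DMSO at day 14 and in 2 µM vemurafenib at day 14. The cells carried a home-made epigenetic guide library delivered by lentivirus and were split at intervals of a few days. The sources used here do not say whether the knockout line was 1 clone. Nor do they say whether the 3 replicates of a group were separate infections or cultures. The p-values therefore speak only for these libraries, and the spread between the libraries may be technical.

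Vemurafenib blocks mutant BRAF and thereby the MEK and ERK kinases that drive growth of such melanoma cells. MED12 is part of the kinase module of Mediator, the complex that links transcription factors to RNA polymerase, and its loss is known for reduced sensitivity to BRAF inhibitors. In a pooled screen most cells carry a single guide, the knockout it makes can speed or slow the cell's growth, and the guide's share of the sequenced reads follows. A share can fall because cells with the guide divide less, because they die, or because other cells expand, and these cannot be told apart here.

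The libraries held 16385695 to 20814734 counts, with a median of 684 to 1259 counts per guide and 4 to 60 guides at 0. The 100 most abundant guides took 4.79% to 5.46% of the counts at day 8, 7.07% to 7.74% in DMSO at day 14 and 11.6% to 14.2% in vemurafenib at day 14. The TMM scaling factors moved with the groups too, from 1.15 to 1.19 at day 8, 0.93 to 0.97 in DMSO at day 14 and 0.76 to 0.80 in vemurafenib at day 14. The part of this skew in the results below was not tested. Guides of the CTRL controls had a median difference of 0.11 on the log2 scale, those of AAVS1, a safe-harbour locus, 0.09 and the Zhang controls 0.06, against 0.04 for guides aimed at genes.

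The drug effect had changed between the days for 10 genes upward, 0.897% of the 1115 tested, and for 2 genes downward, 0.179%, by edgeR's quasi-likelihood test on guides combined per gene by robust rank aggregation (RRA; edgeR/RRA adjusted p under 0.05). Those described here are NF1, TP53BP1, SETDB1, SMAD4, SMARCD1, MAP3K1, RB1, CDKN1A and METTL3, which rose, and CDYL and KDM1A, which fell. Without adjustment 74 of the 1115 genes had an edgeR/RRA p under 0.05, a threshold that some genes pass without any change. A second test, limma on the gene score over libraries, passed 4 genes (0.359%), among them NF1, TP53BP1 and SETDB1. It put 21 of the 1115 genes at an unadjusted p under 0.05, fewer than that threshold gives without any change. Gene score is the mean over the tested guides of a gene of log2(CPM + 0.5), with CPM the count relative to library size after TMM scaling, and all gene differences below are in this score with the SE over 3 libraries a group. RRA weighs the agreement of guides within these libraries, while limma weighs the spread between libraries, and the calls that only RRA made rest on the first. Without the replicate block 6 genes rose and 0 fell. Leaving out DMSO replicate 2, vemurafenib replicate 1 or vemurafenib replicate 2 at day 14, or replicate number 1, left 5 genes that rose, and leaving out vemurafenib replicate 3 at day 14, vemurafenib replicate 1 at day 8 or replicate number 3 left 6.

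No single guide passed: edgeR called 0% of 12208 guides after adjustment (118, or 0.967%, at an unadjusted p under 0.05, lowest adjusted p = 1.00), and DESeq2 called 1. That share is smaller than a threshold of 0.05 gives without any change, so the edgeR test was conservative for single guides. Of the controls, 0 of 83 CTRL, 1 of 267 AAVS1 and 2 of 714 Zhang guides had an unadjusted edgeR p under 0.05. The lack of calls is therefore no measure of how strong single guides were. Over all genes the difference had a median of -0.01, with the 5th percentile at -0.25 and the 95th at 0.26. The drug effects themselves spread further at day 14 (5th percentile -0.37, 95th percentile 0.38) than at day 8 (-0.17 and 0.25). Across the 1115 genes, which share the libraries, the effects of both days had a Pearson correlation of 0.82. Of the 9 described genes that rose, 7 had a positive drug effect on both days, and RB1 and CDKN1A had effects of -0.04 and -0.05 at day 8.

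**Figure D1:**
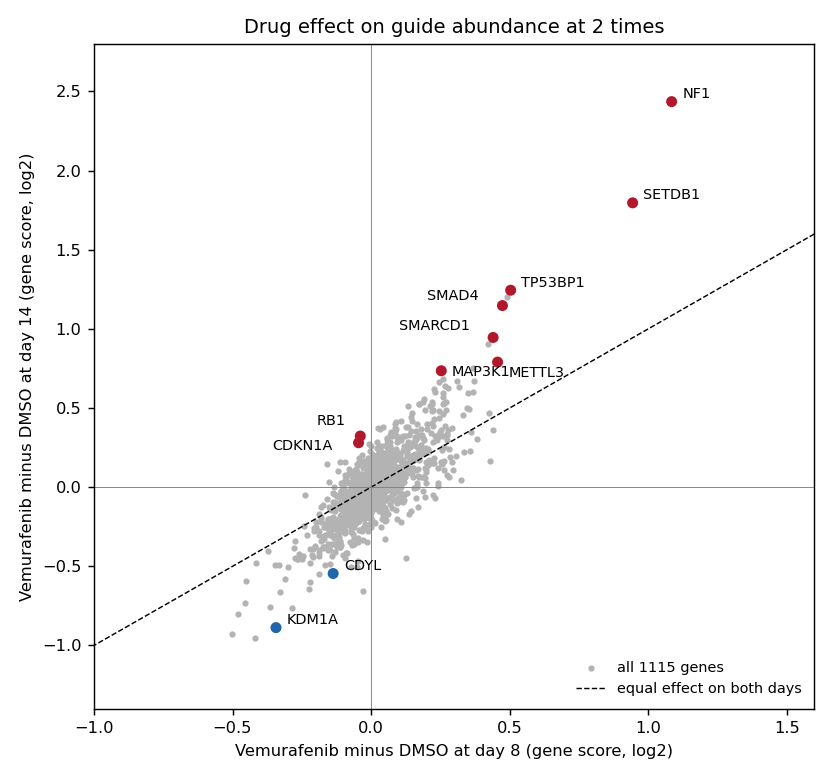
Drug effect (vemurafenib minus DMSO, gene score, log2) at day 8 on the x axis and at day 14 on the y axis for all 1115 genes, with 9 genes that rose in red and 2 that fell in blue. NF1 lies at 1.08 and 2.44, SETDB1 at 0.94 and 1.80, and RB1 and CDKN1A lie above the dashed line of equal effects from day-8 values near 0.

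NF1, the GTPase-activating protein that switches RAS off, had the largest difference of the described genes, 1.35 ± 0.19 (SE; 95% interval 0.95 to 1.76; edgeR/RRA adjusted p = 4.1e-11; limma adjusted p = 0.00276). Its 10 guides summed to 376, 388 and 386 CPM in DMSO at day 8 and to 416, 400 and 475 CPM in DMSO at day 14. Under vemurafenib they summed to 779, 743 and 1024 CPM at day 8 and to 2463, 2188 and 4447 CPM at day 14. Both vemurafenib groups lay above both DMSO groups in every library. The described genes were called on these same libraries, so separation of the arms, here and below, is not independent support. The share of all genes with such separation is not given here. The gene score moved by 1.15 ± 0.14 from day 8 to day 14 in vemurafenib and by -0.20 ± 0.14 in DMSO, and the difference was 1.41, 1.23 and 1.41 in replicates 1, 2 and 3.

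All 10 guides against NF1 had a difference above 0, from 0.27 for NF1_5 to 2.07 for NF1_9, with a median of 1.42. The guides were unlike in how evenly they rose over replicates. NF1_4 reached 17763, 6033 and 7457 counts in vemurafenib at day 14, against 1702, 301 and 442 counts in DMSO. NF1_9 reached 35620 counts in replicate 3 of vemurafenib at day 14 but 372 and 133 counts in replicates 1 and 2, and it was already high in replicate 3 of vemurafenib at day 8 (6420 counts, against 480 and 399). In DMSO this guide was also highest in replicate 3, with 1627 counts against 258 and 480 at day 8 and 2994 against 71 and 218 at day 14. Replicate 3 had the highest summed CPM of the 3, while the gene score, which gives each guide equal weight, put its difference between those of the other replicates.

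NF1 was the only one of 7 measured brakes on RAS, MAPK and growth signalling to pass, and the median difference of the 7 was 0.13, against -0.01 for all genes. NF2, which encodes the Hippo-pathway regulator merlin, had 0.37 ± 0.12 (edgeR/RRA adjusted p = 0.199), with 2036, 1751 and 2364 CPM in vemurafenib at day 8 and 6398, 7054 and 9352 CPM at day 14. In DMSO its guides went from 1630, 1315 and 1813 CPM to 2801, 2360 and 3611 CPM, and were thus higher at day 14 in both arms. CUL3, the scaffold of a ubiquitin ligase, had 0.30 ± 0.18 (adjusted p = 0.3, edgeR/RRA).

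Kinases of the pathway that the drug blocks did not pass. None of 6 measured RAS, RAF, MEK and ERK genes was called, where 12 of all 1115 genes were, and their median was 0.12. At that share a list of this size can hold no call without differing from other genes. BRAF, the drug's target, had a drug effect of 0.37 ± 0.14 at day 8 and 0.60 ± 0.14 at day 14, a difference of 0.23 ± 0.20 (edgeR/RRA adjusted p = 0.868; -0.023 when scaled on library totals). BRAF guides summed to 561, 556 and 536 CPM at day 0, from a separate TMM scaling that included the day-0 libraries. At day 14 they summed to 253, 240 and 362 CPM in DMSO and to 871, 527 and 597 CPM in vemurafenib. From day 8 to day 14 the BRAF gene score moved by -0.54 ± 0.14 in DMSO and by -0.30 ± 0.14 in vemurafenib. The mean vemurafenib sum went from 448 to 665 CPM, so sum and score differ in sign in that arm. The BRAF guide differences ranged from -1.53 to 1.08. MAP2K1, the kinase MEK1, had 0.39 ± 0.20 (edgeR/RRA adjusted p = 0.937). Receptor kinases and their adaptors held no call either, 3 of 11 lay above 0, against 533 of all 1115 genes, and the median was -0.15. PTPN11, the phosphatase SHP2, had -0.42 ± 0.28 and EGFR -0.32 ± 0.20.

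MAP3K1, a kinase that feeds the JNK cascade, rose by 0.48 ± 0.16 (edgeR/RRA adjusted p = 0.00596; limma adjusted p = 0.999). Its guides stood at 906, 888 and 920 CPM in vemurafenib and 709, 671 and 774 CPM in DMSO at day 8. By day 14 they had 1958, 2118 and 2138 CPM in vemurafenib against 992, 909 and 1123 CPM in DMSO, with no overlap between the arms on either day. The other measured members of the cascade were MAP2K4, a kinase that phosphorylates JNK, at 0.34 ± 0.19, and MAP3K7 (TAK1) at 0.25 ± 0.20, neither past the threshold (edgeR/RRA adjusted p = 0.401 and 0.933). The MAP3K1 call was lost without the block (adjusted p = 0.142), and without vemurafenib replicate 3 at day 8 (0.14), DMSO replicate 2 at day 14 (0.125), vemurafenib replicates 1 (0.0733) or 2 (0.258) at day 14, or replicate number 2 (0.442) or 3 (0.102) in all groups.

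SMAD4, the common partner of the receptor-activated SMAD proteins in TGF-beta signalling, rose by 0.67 ± 0.16 (edgeR/RRA adjusted p = 4.68e-05; limma adjusted p = 0.176). In DMSO its guides changed from 1094, 1005 and 1061 CPM at day 8 to 1331, 1413 and 1375 CPM at day 14. In vemurafenib they went from 1626, 1359 and 1576 CPM to 3156, 4085 and 3824 CPM, above every DMSO library of the same day. All 10 guides had a difference above 0 (0.28 to 1.16). SMAD3 and SMAD2, the partners that SMAD4 joins, had 0.19 ± 0.25 and 0.08 ± 0.17 and did not pass. Without vemurafenib replicate 3 at day 14 the SMAD4 difference was 0.52 (adjusted p = 0.121).

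**Figure D2:**
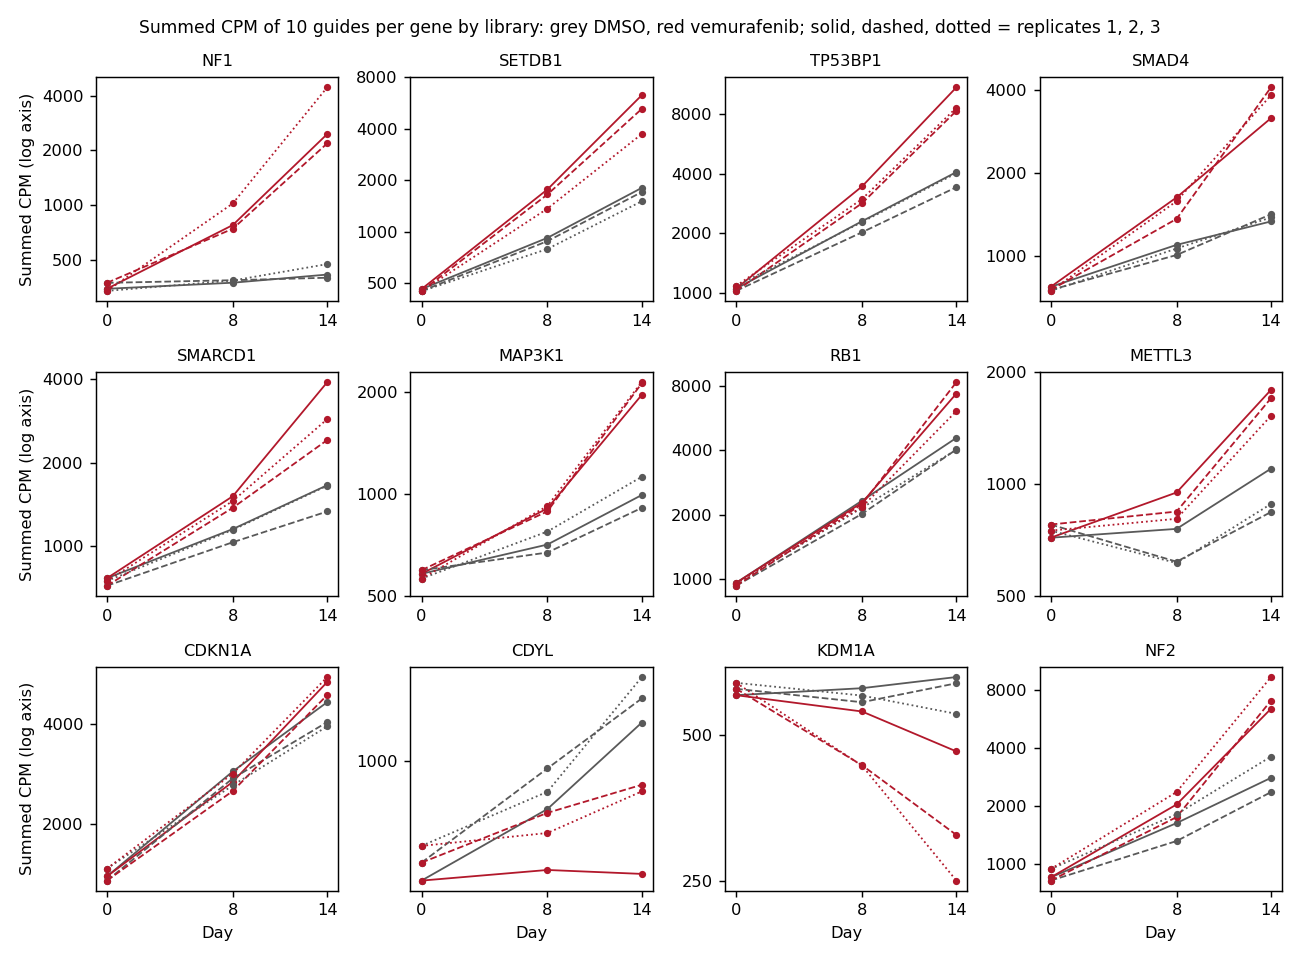
Summed CPM of the 10 guides of each gene (log axis, scale set per panel) by day (x axis), 1 line per replicate number, DMSO in grey and vemurafenib in red. Both arms are drawn from the day-0 library of that number, though the labels do not say that it was their parent. Day-0 values come from a separate TMM scaling that included the day-0 libraries. NF1 guides stay between 376 and 475 CPM in DMSO at days 8 and 14 while they reach 2188 to 4447 CPM in vemurafenib at day 14, and KDM1A guides fall under vemurafenib.

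Among cell-cycle brakes and checkpoint genes, a list chosen with earlier results of these data known, TP53BP1, RB1 and CDKN1A rose, where 0.897% of all genes did. The median difference of the 15 measured genes of the list was 0.09, against -0.01 for all genes, and BRCA1, a DNA-repair gene, lay lowest at -0.29 ± 0.24. TP53BP1, a DNA-damage scaffold of double-strand break repair, rose by 0.74 ± 0.12 (edgeR/RRA adjusted p = 1.55e-09; limma adjusted p = 0.00585), and its 10 guides were the most even of the described genes that rose (0.36 to 1.02). Its guides held 2304, 2027 and 2282 CPM in DMSO and 3454, 2841 and 2983 CPM in vemurafenib at day 8. By day 14 they held 4084, 3426 and 4030 CPM in DMSO and 10948, 8330 and 8636 CPM in vemurafenib. The arms did not overlap on either day, and the score moved by 1.34 ± 0.09 in vemurafenib and 0.60 ± 0.09 in DMSO between the days.

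RB1, the retinoblastoma protein that holds back S-phase entry, rose by 0.36 ± 0.14 (edgeR/RRA adjusted p = 0.00685; limma adjusted p = 0.999). At day 8 the arms overlapped, with 2323, 2016 and 2151 CPM in DMSO and 2274, 2237 and 2170 CPM in vemurafenib. The later day set them apart, at 4576, 4037 and 4029 CPM in DMSO and 7381, 8341 and 6106 CPM in vemurafenib. Both arms lay higher at day 14 than at day 8. Of its guides, 9 of 10 were above 0, and RB1_10, with 103 to 1049 counts in DMSO at day 8, stood at -1.08. The RB1 call was lost without the block (adjusted p = 0.399), without DMSO replicate 3 (0.0576) or vemurafenib replicate 1 (0.2) at day 8, without DMSO replicate 2 or 3 (0.125 each) or vemurafenib replicate 1 (0.565) or 2 (0.0544) at day 14, and without replicate number 1 (0.403) or 3 (0.102).

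CDKN1A, the CDK inhibitor p21, showed the same order of values at a smaller size, with a difference of 0.33 ± 0.13 (edgeR/RRA adjusted p = 0.0102; limma adjusted p = 0.999). Its guides had 2875, 2739 and 2609 CPM in DMSO and 2674, 2509 and 2831 CPM in vemurafenib at day 8, which overlap. At day 14 they had 4654, 4051 and 3933 CPM in DMSO and 5355, 4890 and 5542 CPM in vemurafenib, which do not. The call was kept in 2 of 15 fits that left out 1 library or 1 replicate number, those without DMSO replicate 3 or vemurafenib replicate 3 at day 8. It was lost with library totals in place of TMM (0.05; adjusted p = 0.588) and without the block (adjusted p = 0.204). CDKN1B, the related inhibitor p27, had 0.35 ± 0.15 with 9 of 10 guides above 0 and did not pass (edgeR/RRA adjusted p = 0.359), and CDKN2A, the locus of p16, had -0.04 ± 0.14.

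Genes that drive the cell cycle were not called (0 of 8, where 12 of all 1115 genes were, median -0.05). CDK2, the kinase of S-phase entry, had -0.34 ± 0.16 with 8 of 10 guides below 0 (edgeR/RRA adjusted p = 0.279). Its guides held 377, 372 and 377 CPM in vemurafenib and 459, 493 and 500 CPM in DMSO at day 8. At day 14 they held 466, 417 and 314 CPM in vemurafenib and 521, 619 and 578 CPM in DMSO, with the drug arm below DMSO on both days. The CDK2 gene score moved by -0.34 ± 0.12 in vemurafenib between the days, though the sum was higher at day 14 in replicates 1 and 2. The difference for CDK2 did not pass in any alternative run (adjusted p = 0.118 to 0.844 over 23 alternatives that used RRA).

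SETDB1, the methyltransferase that deposits H3K9 trimethylation at silenced repeats, rose by 0.85 ± 0.14 (95% interval 0.55 to 1.15; edgeR/RRA adjusted p = 4.97e-05; limma adjusted p = 0.00585). Its guides had 919, 879 and 791 CPM in DMSO and 1764, 1648 and 1362 CPM in vemurafenib at day 8. At day 14 they had 1802, 1703 and 1505 CPM in DMSO and 6278, 5221 and 3722 CPM in vemurafenib. The score moved by 0.68 ± 0.10 in DMSO and 1.53 ± 0.10 in vemurafenib between the days, and all 10 guides were above 0 (0.28 to 1.77). Without replicate number 1 the difference was 0.76 and the call was lost (edgeR/RRA adjusted p = 0.38).

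Other members of the H3K9 and HUSH silencing list, chosen with earlier results of these data known, did not pass, so 1 of 14 rose. The list median was 0.08, with 12 of 14 above 0, against 533 of all 1115 genes. By replicate that median was 0.21, 0.16 and -0.05 in replicates 1, 2 and 3. MPHOSPH8, the HUSH subunit that binds methylated H3K9 and recruits SETDB1, came next with 0.35 ± 0.14 and 9 of 10 guides above 0 (edgeR/RRA adjusted p = 0.0702, and 0.048 with DESeq2). Its guides had 1755, 2248 and 1889 CPM in DMSO and 2121, 2670 and 2501 CPM in vemurafenib at day 8. At day 14 the values were 3376, 5078 and 3934 CPM in DMSO and 6291, 7174 and 7528 CPM in vemurafenib. TRIM28, the corepressor that brings SETDB1 to zinc-finger proteins, had -0.13 ± 0.23, and SUV39H1 and EHMT2, which are other H3K9 methyltransferases, had 0.02 ± 0.17 and 0.10 ± 0.22.

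**Figure D3:**
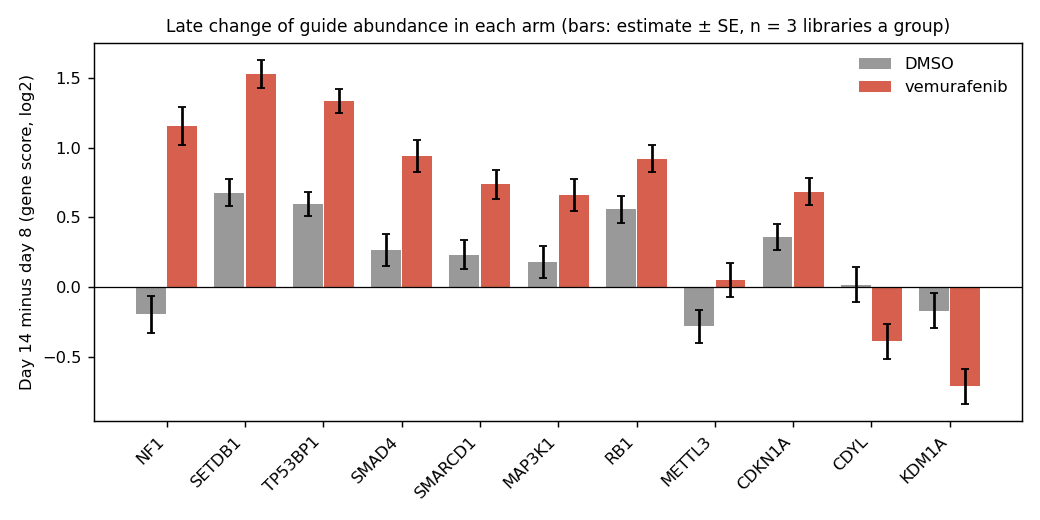
Change of gene score from day 8 to day 14 (log2) in DMSO (grey bars) and in vemurafenib (red bars) for the 11 described genes, with error bars of 1 SE from the fit to 3 libraries a group. NF1 and METTL3 lie below 0 in DMSO (-0.20 and -0.28) and above 0 in vemurafenib (1.15 and 0.05), while SETDB1, TP53BP1 and RB1 gain in both arms.

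SMARCD1, an accessory subunit of BAF chromatin remodellers, was the only one of 20 measured BAF and PBAF genes called, and the median of the 20 was 0.01. It rose by 0.51 ± 0.15 (edgeR/RRA adjusted p = 0.00479; limma adjusted p = 0.626), with all 10 guides above 0 (0.12 to 1.62). Its guides had 1151, 1032 and 1143 CPM in DMSO and 1513, 1374 and 1454 CPM in vemurafenib at day 8, and 1658, 1332 and 1651 CPM in DMSO and 3905, 2413 and 2872 CPM in vemurafenib at day 14. The highest value, replicate 1 of vemurafenib at day 14, went with the largest difference among replicates (0.70, against 0.32 and 0.50). The paralogs SMARCD2 and SMARCD3 had 0.17 ± 0.13 and -0.24 ± 0.15. The SMARCD1 call was kept in 4 of 15 fits that left out 1 library or replicate number, those without DMSO replicate 2 or 3 at day 8, DMSO replicate 1 at day 14 or replicate number 2, and was lost without the block (adjusted p = 0.204). It was also lost with library totals in place of TMM (0.23; adjusted p = 0.588) and with an RRA alpha of 0.1 (adjusted p = 0.262).

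METTL3, the catalytic subunit of the m6A RNA methyltransferase, rose by 0.33 ± 0.17 (edgeR/RRA adjusted p = 0.0311; limma adjusted p = 0.999), and the 95% interval of the score difference, -0.02 to 0.69, included 0. Its guides had 757, 618 and 613 CPM in DMSO and 949, 843 and 806 CPM in vemurafenib at day 8. At day 14 they had 1100, 840 and 884 CPM in DMSO and 1791, 1700 and 1525 CPM in vemurafenib. In DMSO the summed CPM was higher at day 14 while the gene score moved by -0.28 ± 0.12, so the sum and the mean of logs differ in sign here. METTL3_7, an abundant guide, had 7341, 4591 and 4511 counts in DMSO at day 8 and 12077, 7486 and 7673 at day 14. METTL3_3, a scarce one, had 81, 240 and 148 counts in DMSO at day 8 and 13, 13 and 31 at day 14.

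The METTL3 guides split: 6 were above 0, up to 2.22 for METTL3_3, and 4 were below 0, down to -0.45. METTL14, the partner that METTL3 needs for activity, had 0.27 ± 0.13 with 10 of 10 guides above 0 but did not pass (edgeR/RRA adjusted p = 1). FTO and ALKBH5, the m6A demethylases, had -0.23 ± 0.21 and 0.00 ± 0.20. The METTL3 call was kept in 2 of 15 fits that left out 1 library or replicate number, those without DMSO replicate 2 at day 8 or replicate number 3, and it was kept without the block (adjusted p = 0.0357). With library totals in place of TMM the METTL3 difference was 0.076 and the call was lost (adjusted p = 0.126).

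The genes that fell were CDYL and KDM1A. CDYL, a chromodomain corepressor that binds methylated H3K9 and H3K27, fell by 0.41 on the log2 scale (SE 0.18; edgeR/RRA adjusted p = 0.00596; limma adjusted p = 0.999). In DMSO its guides moved from 887, 983 and 927 CPM at day 8 to 1103, 1172 and 1237 CPM at day 14. In vemurafenib they went from 761, 879 and 835 CPM to 753, 943 and 927 CPM. CDYL guides were thus lower in every vemurafenib library than in any DMSO library of the same day. The summed CPM was higher at day 14 in all 3 DMSO replicates, while the gene score moved by 0.02 ± 0.12 in DMSO and -0.39 ± 0.12 in vemurafenib. Its 7 guides below 0 reached -1.53, and the 3 above 0 reached 0.52.

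KDM1A, the lysine demethylase LSD1 of the CoREST complex, fell by 0.54 on the log2 scale (SE 0.18; edgeR/RRA adjusted p = 0.0335; limma adjusted p = 0.999). Its guides had 625, 585 and 604 CPM in DMSO and 560, 434 and 433 CPM in vemurafenib at day 8. At the later day those values were 659, 640 and 554 CPM in DMSO and 463, 312 and 251 CPM in vemurafenib. The arms did not overlap on either day, and the difference was -0.37, -0.62 and -0.64 in replicates 1, 2 and 3. KDM1A_8 and KDM1A_2 had the lowest guide values, -1.87 and -1.63, and 2 of 10 guides lay above 0.

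KDM1A was the only one of 8 measured KDM1A and CoREST genes called, and the list had a median of 0.04. HMG20B, a DNA-binding subunit of the same complex, had 0.27 ± 0.17, and the deacetylases HDAC1 and HDAC2 had 0.16 ± 0.17 and 0.07 ± 0.19. CDYL and KDM1A each kept their call in 4 of 15 fits that left out 1 library or replicate number. For CDYL these were the fits without DMSO replicate 2 or 3 or vemurafenib replicate 1 at day 8, or DMSO replicate 1 at day 14, and for KDM1A those without DMSO replicate 2 or 3 or vemurafenib replicate 2 at day 8, or DMSO replicate 1 at day 14. Without the block both missed the threshold (edgeR/RRA adjusted p = 0.0603 for CDYL and 0.0631 for KDM1A). With library totals KDM1A stood at -0.81 and missed it as well (adjusted p = 0.0674), and without vemurafenib replicate 1 at day 14 CDYL stood at -0.24 (adjusted p = 0.49).

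**Figure D4:**
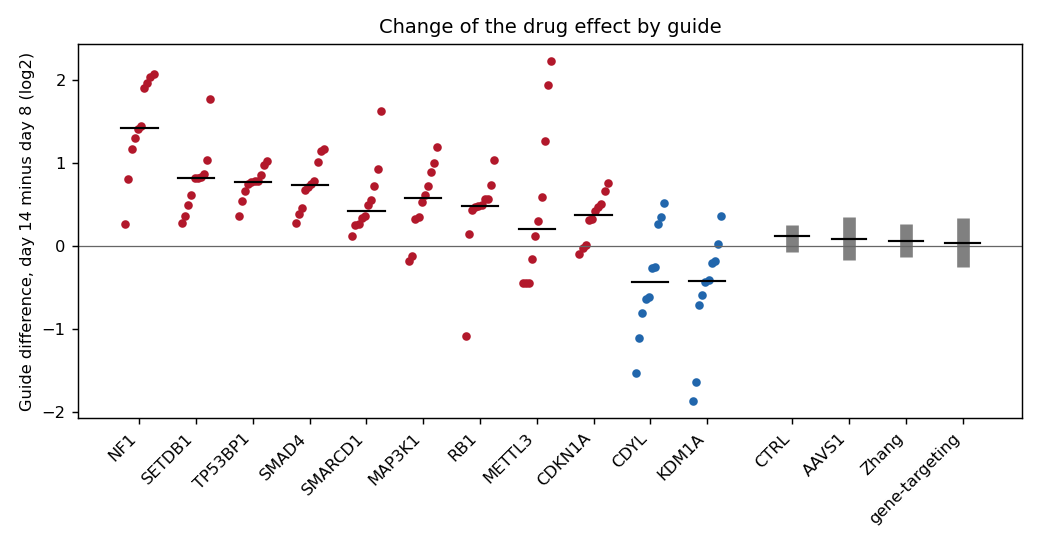
Difference of the drug effect (day 14 minus day 8, log2) of each of the 10 guides of the 11 described genes (points, black bar at the median), beside the median and the quartiles (grey bars) of the CTRL, AAVS1 and Zhang controls and of all guides aimed at genes. NF1 guides spread from 0.27 to 2.07, METTL3 guides from -0.45 to 2.22, and the control medians lie at 0.06 to 0.11.

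Genes that came next on the falling side did not pass. ALKBH4, a dioxygenase, had -0.36 ± 0.16 (edgeR/RRA adjusted p = 0.09), BPTF, which anchors the NURF remodeller to methylated H3K4, -0.54 ± 0.19 (0.258), and the splicing factor SF3B1 -0.57 ± 0.26 (0.357). BPTF guides showed 9 of 10 below 0, with 760, 628 and 553 CPM in vemurafenib at day 8 and 984, 747 and 418 CPM at day 14, while DMSO went from 877, 741 and 692 CPM to 1194, 1097 and 637 CPM. The BPTF gene score moved by -0.57 ± 0.14 in vemurafenib and by -0.03 ± 0.14 in DMSO. Sum and score thus differ, as the vemurafenib sum was higher at day 14 in replicates 1 and 2. SF3B1 guides were already scarce, at 48.1, 102 and 62.9 CPM in DMSO and 46.4, 26.6 and 72.8 CPM in vemurafenib at day 14. SF3B1 passed in 2 alternatives, without vemurafenib replicate 2 at day 8 (adjusted p = 0.0498) and without DMSO replicate 1 at day 14 (0.00157), and BPTF in 1, without DMSO replicate 3 at day 8 (0.0327). The remaining genes by rank, METTL2A, ING3, BCORL1, SENP1 and SMARCB1, had differences from -0.34 to -0.07.

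**Figure D5:**
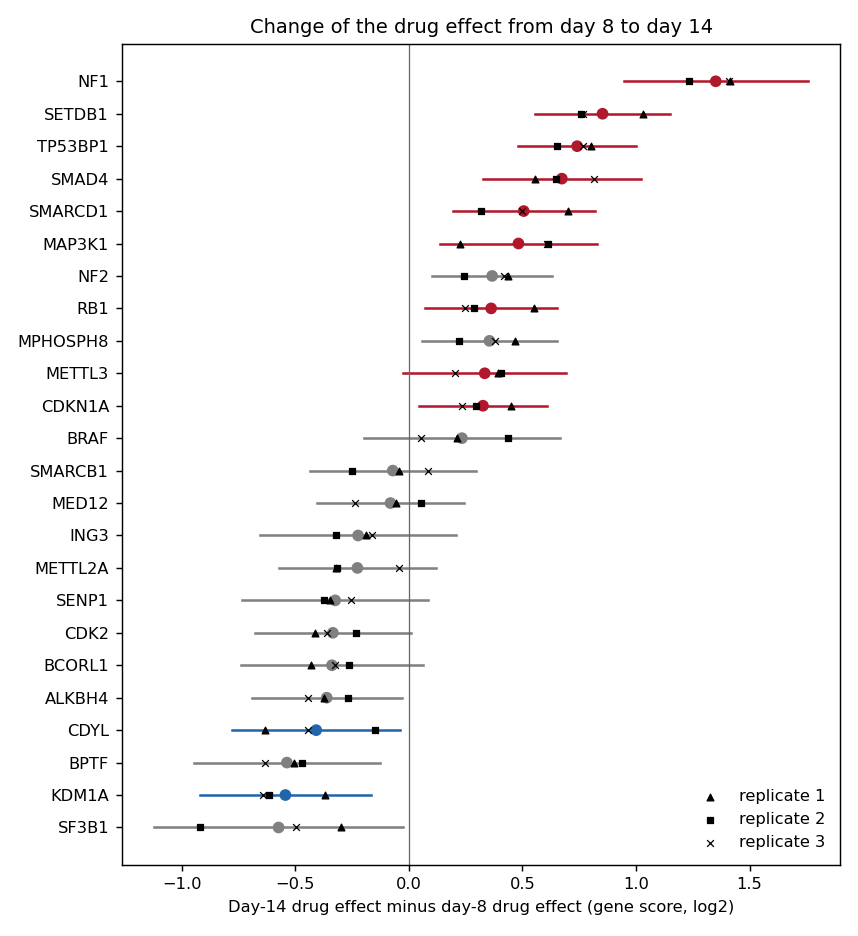
Difference of the drug effect (day 14 minus day 8, gene score, log2) with its 95% interval for the described genes, those next in rank and BRAF, MED12 and NF2, and the value in each replicate as black symbols. Red genes rose, blue genes fell and grey genes did not pass, and the 3 replicate values of each red or blue gene lie on 1 side of 0.

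Each of the 11 described genes had its 3 replicate differences in 1 direction, as had 349 of all 1115 genes (31.3%). The 5 genes whose scores followed NF1 most closely over the 12 libraries after removal of replicate means were GNAQ, PARP10, BRD2, PJA1 and SMAD4 (Pearson correlation 0.95, 0.94, 0.94, 0.94 and 0.93). These libraries share the 4 groups, so any gene with an ordered response to drug and time scores high. Guides against MED12 itself, a check on the parental knockout in these cells, had a drug effect of -0.13 ± 0.11 at day 8 and -0.21 ± 0.11 at day 14 and a difference of -0.08 ± 0.15 (edgeR/RRA adjusted p = 1). CDK8, the Mediator kinase, and MED19 had -0.05 ± 0.14 and 0.14 ± 0.24, so 0 of 3 measured Mediator genes passed, where 12 of all 1115 genes did.

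Further lists had medians from -0.16 to 0.10, against -0.01 for all genes, and none of their members passed. Of all 1115 genes 12 were called, so lists of these sizes can hold no call without differing from the rest. SAGA, the acetyltransferase and deubiquitinase coactivator, had 0 of 19 called and a median of 0.10, with SUPT20H highest at 0.28 ± 0.19 and TAF10 lowest at -0.26 ± 0.22. The MLL methyltransferases and COMPASS genes had a median of -0.08 (0 of 19), Polycomb repressive complex 2 -0.02 (0 of 11), Polycomb repressive complex 1 0.03 (0 of 21), and the CREBBP, EP300 and MYST acetyltransferases 0.04 (0 of 21). Cullin ligases had the lowest median, -0.16 (0 of 12), with CUL3 at one end and SKP2, the receptor that marks p27 for destruction, at the other (-0.42 ± 0.23). When libraries were scaled on their totals, the median of all genes shifted to -0.27 and these medians moved with it, so their signs hold only relative to the scaling.

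Core essential genes had median changes below 0 in both arms between the days. The 35 ribosomal protein genes had a median change of -0.42 in vemurafenib and -0.33 in DMSO and a median difference of -0.07. None was called, where 12 of all 1115 genes were. The 10 proteasome genes had -0.41 in vemurafenib and -0.36 in DMSO with a difference of -0.04, and the 16 spliceosome genes -0.29 and -0.36 with a difference of 0.06. RPL27, the lowest of the ribosomal list, had a difference of -0.33 ± 0.21.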

How the data were processed

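The table deposited by the authors holds raw counts of reads for every guide in each library, not normalized. The submitters' processing notes name HISAT2, HTSeq and bcl2fastq, whose versions and settings are not given in the sources. Guides were amplified by PCR, with no molecular identifiers mentioned, so reads are not independent molecules. Of 1115 gene symbols 1069 are current and 43 are older names, and all are printed as deposited. No guide sequences or coordinates were used.

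The 12214 guides were filtered with filterByExpr in edgeR 4.0.16 (R 4.3.3; minimum count 10, minimum total 15), which left 12208, and libraries were scaled by TMM. Group means and the replicate number as a block were fitted to 12 libraries by quasi-likelihood, and the difference of drug effects was tested 2-sided. Guides aimed at genes were ranked by signed p and combined per gene by RRA (alpha 0.25) against an exact null, with p as 2 times the smaller of both directions and Benjamini-Hochberg adjustment over 1115 genes. Sizes and SE come from limma 3.58.1 on gene scores with the same block, which includes its moderated variance. Same-numbered libraries of different groups deviated together from their group means (correlation 0.64 to 0.90 over 18 pairs), so the numbers pair the samples. Pairs of different numbers had -0.49 to -0.30 (36 pairs). Deviations from a group mean cancel within the group, so these negative values follow from the positive ones and add no evidence. Scripts were checked on simulated data.

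Genes were named as all called genes, the next by p up to 12 in a direction, BRAF, MED12, NF1 and NF2, and the called and extreme members of 30 gene lists. The members and lists were chosen with earlier results of these data known. Some genes, 1 called gene among them, are counted in the totals but not reported here. Alternatives were no block, added day-0 libraries, DESeq2 1.42.0, limma, RRA alpha 0.1, other scalings and filters, libraries left out and, tested by limma, the median over guides, the mean without the farthest guide and a pseudocount of 5 CPM.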

Additional observations from a re-analysis of the deposited data

Results flagged for a closer look

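The comparison is itself a difference between the drug effects at 2 times, and 11 described genes passed its test. The differences upward were 1.35 for NF1, 0.85 for SETDB1, 0.74 for TP53BP1, 0.67 for SMAD4, 0.51 for SMARCD1, 0.48 for MAP3K1, 0.36 for RB1, 0.33 for METTL3 and 0.33 for CDKN1A on the log2 scale. The differences downward were -0.41 for CDYL and -0.54 for KDM1A. Groups of 3 libraries were too small for a search for single outlying samples. NF1_9, with 35620 counts in 1 vemurafenib library at day 14 and 372 and 133 in the other 2, was singled out after its values were seen. In DMSO at day 14 it was highest in the same replicate number, with 2994 counts against 71 and 218.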

How the results depend on the processing

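With 3 libraries a group the median SE of a gene difference was 0.19. The 95% interval reaches further than 1 SE to each side, so differences of about that size were not resolved. For METTL3, at 0.33 with an SE of 0.17, the interval still included 0. NF1 and TP53BP1 passed in all 23 alternatives that used RRA, and SMAD4 and SETDB1 in 22. Without the replicate block 6 genes rose and 0 fell, all 6 shared with the 12 called with it. Limma on gene scores gave 4 up and 0 down, library totals 7 up and 1 down, and DESeq2 11 up and 2 down, with 1 guide called up by DESeq2. Library totals shifted the median of all genes from -0.01 to -0.27 and with it the differences of TP53BP1 (0.47), SMAD4 (0.40), MAP3K1 (0.22), RB1 (0.097), METTL3 (0.076), SMARCD1 (0.23), CDKN1A (0.055), CDYL (-0.67) and KDM1A (-0.81). Scaling on CTRL guides put that median at -0.04 and gave 10 up and 2 down, with all 11 described genes among them. Of the 11 described genes 3 passed limma, and this was 3 with a pseudocount of 5 CPM, 2 without the guide farthest from the mean (SETDB1 lost, adjusted p = 0.209) and 1 with the median over guides (NF1). With the median over guides the differences were 0.96 for MAP3K1, 0.64 for RB1, 0.52 for METTL3, 0.33 for SMARCD1, 0.20 for CDKN1A and -0.16 for CDYL, and METTL3 was 0.19 without the farthest guide. Leaving out 1 library or replicate number gave 5 to 10 genes up and 0 to 3 down, with 5 up without DMSO replicate 2, vemurafenib replicate 1 or vemurafenib replicate 2 at day 14 or without replicate number 1. Signs turned for BRAF with library totals (-0.023), for SMARCB1 with the median over guides (0.011) and with libraries left out (-0.23 to 0.039), and for MED12 with the median over guides (0.15), none of which passed. No sign turned among the 11 described genes. The cause of these shifts was not tested.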

Other observations

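Further genes were picked after their values had been seen, and none of those named in this paragraph passed, other than CDYL and METTL3, which are named for reference. Of all 1115 genes, 533 lay above 0 and 12 were called. METTL5, an enzyme that methylates ribosomal RNA, had a difference of 0.34 ± 0.13 with all 10 guides above 0 (edgeR/RRA adjusted p = 0.943), and among the 24 METTL genes other than METTL3, 13 lay above 0 with a median of 0.05. Subunits of AMP-activated kinase, the energy sensor, had 1 of 7 above 0 and a median of -0.06, with the catalytic PRKAA1 lowest at -0.29 ± 0.22. Elongator, which modifies transfer RNA, had 4 of 5 above 0, with ELP3 at 0.25 ± 0.23 and ELP2 at -0.30 ± 0.26. CDYL2, the paralog of CDYL, had -0.15 ± 0.16 with 4 of 10 guides above 0 and did not pass. Genes of AKT and PI3K signalling, TSC1 and TSC2 of an earlier list included, had 7 of 11 above 0, from -0.21 for PIK3R1 to 0.22 for RICTOR, and KEAP1 and NFE2L2, which govern the oxidative stress response, had 0.13 ± 0.15 and 0.04 ± 0.15.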
